A study of Mus musculus with 4 samples.

Results

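The AP-1 and Egr immediate early factors are 10 of the 16051 genes in the deposited table, and were found by their symbols: the Fos family genes Fos, Fosb, Fosl1 and Fosl2, the Jun family genes Jun, Junb and Jund, the zinc finger gene Egr1, and the immediate early response genes Ier2 and Ier3. All 10 had a row. Differentiated cells of 3T3-L1, a mouse embryonic fibroblast line that forms fat cells in culture, labelled as NIH SWISS strain, were kept for 48 h with 100 μM risperidone, an antipsychotic drug, or with its vehicle DMSO, in 2 mRNA libraries per treatment. The labels call the control untreated, while the study's methods name DMSO. RNA from several cultures of this 1 line was pooled for each library, so p-values measure only the spread between pools.

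Immediate early genes are transcribed within minutes of a stimulus without new protein synthesis, through factors such as SRF, its ternary complex partners and CREB that lie at the end of kinase cascades, and most of their mRNAs decay fast. Fos and Jun family proteins pair through leucine zippers to form AP-1, which binds the sequence TGACTCA or TGAGTCA, whereas Fos proteins do not pair with each other. Egr1 binds GC-rich sites, induces its own corepressors of the Nab family, and its relative Egr2, like Fos, is known as an early gene when 3T3-L1 cells are induced to become fat cells. At 48 h the values here are levels in continued treatment, not the first response.

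The libraries held 15883712 to 16374119 estimated counts. A log2 fold change is always that of risperidone relative to DMSO. Adjusted p-values come from the two-sided quasi-likelihood test of edgeR, adjusted by Benjamini and Hochberg's method across the 10243 genes that averaged at least 1 FPKM, a fragment count scaled by transcript length and library size. Of these genes 64.3% were called at an adjusted p under 0.05, with 32.1% higher and 32.2% lower, so a call by itself was common. This even split depended on the scaling: 49.9% of called genes were higher here, 37.9% with library size as the only scaling and 22.5% on TPM, where all genes had a median log2 fold change of -0.22. The label of adipocytes was only partly met. Of 12 adipocyte markers, 6 to 8 per library had under 3 counts, Adipoq, Lep, Retn, Cidec and Slc2a4 among them, while Lpl, Fabp4 and Pparg were present, as were the fibroblast genes Pdgfra and Col1a1. The summed FPKM of 12 kidney markers was 1.72 to 2.73 in 3 libraries and 199.68 in risperidone replicate 2. The members and the gene lists are therefore also given without that library.

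Of the 10 members, 7 were tested, and 5 of these passed the test. Egr1, Ier2, Ier3 and Jun fell and Junb rose, which is 4 lower and 1 higher against a background of 32.2% and 32.1%. A log2 fold change of -1 or less at an adjusted p under 0.05 was reached by 3 members, Egr1, Ier2 and Ier3, and by 3.91% of all tested genes. Fosl2 and Jund did not pass. Fos, Fosb and Fosl1 had means under 1 FPKM and were compared in a second fit over the 11418 genes with a mean of at least 10 counts, of which 59.9% were called. None of these 3 was called there, where their unadjusted p were 0.0592, 0.192 and 0.0616. The median log2 fold change of the 7 tested members was -0.48, against 0.00044 over all genes. Without risperidone replicate 2 the calls were again 4 lower and 1 higher. The FPKM values did not overlap between treatments for 6 of the 7 tested members and for 82.2% of tested genes, and for 8 of all 10 members.

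**Figure D1:**
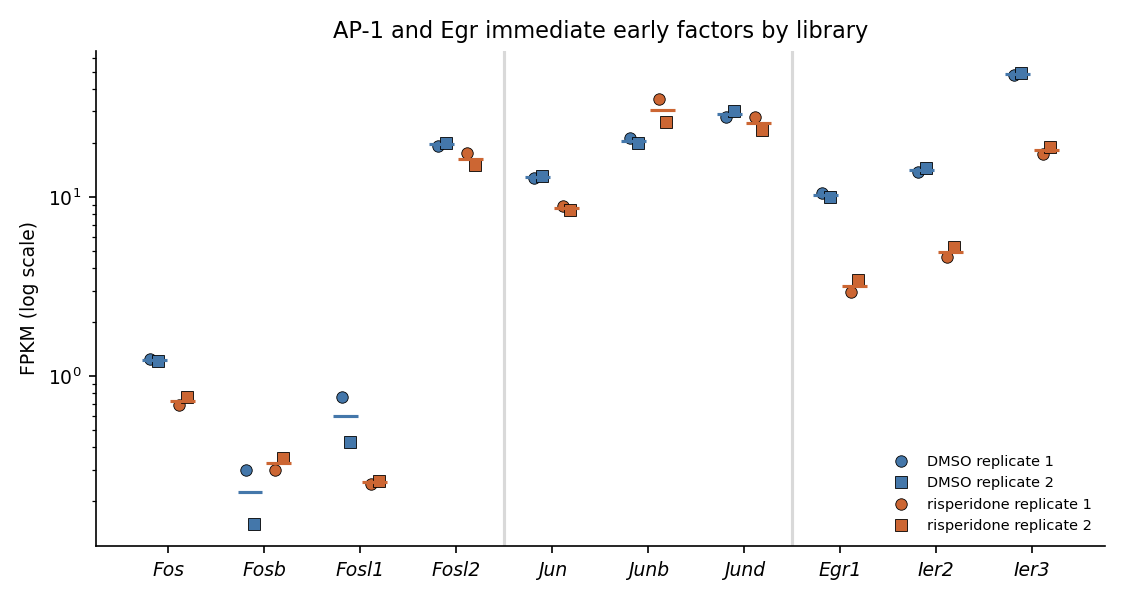
FPKM of the 10 members on a log scale in each of the 4 libraries, with circles for replicate 1, squares for replicate 2 and a bar at the mean of each treatment. Egr1, Ier2 and Ier3 show wide gaps between treatments, Junb is the member whose risperidone libraries both lie above DMSO without overlap, and Fos, Fosb and Fosl1 lie at or under 1.25 FPKM.

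The promoters of Jun, Junb and Fosl2 are shown because Jun and Junb, partners of the same proteins, moved in opposite directions, and because Fosl2 carries the short word that Egr proteins bind. Each run is the 250 bases before the start site, 5′ to 3′ on the strand of the gene, from RefSeq on GRCm38.p6. They are chr4:95052223-95052472 on the minus strand for Jun, chr8:84978749-84978998 on the minus strand for Junb, and chr5:32136222-32136471 on the plus strand for Fosl2. Capitals mark the words TGACATCA in Jun, TGACG in Junb and GCGGGGGCG in Fosl2.
Jun: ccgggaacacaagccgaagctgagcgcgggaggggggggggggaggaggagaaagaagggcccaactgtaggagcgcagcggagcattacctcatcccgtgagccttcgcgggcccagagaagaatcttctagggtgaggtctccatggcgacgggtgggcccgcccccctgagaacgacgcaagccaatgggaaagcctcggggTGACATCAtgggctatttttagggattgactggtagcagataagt
Junb: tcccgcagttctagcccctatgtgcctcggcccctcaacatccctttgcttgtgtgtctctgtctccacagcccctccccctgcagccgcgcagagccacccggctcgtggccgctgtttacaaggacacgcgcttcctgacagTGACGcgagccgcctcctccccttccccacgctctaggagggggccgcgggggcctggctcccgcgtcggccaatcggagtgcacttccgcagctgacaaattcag
Fosl2: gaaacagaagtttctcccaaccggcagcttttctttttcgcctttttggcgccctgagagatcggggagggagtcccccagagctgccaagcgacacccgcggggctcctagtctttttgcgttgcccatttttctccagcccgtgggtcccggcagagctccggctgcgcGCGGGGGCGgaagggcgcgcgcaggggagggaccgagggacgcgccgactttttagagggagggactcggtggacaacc

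Windows from 250 bases before to 50 after the start were searched on both strands for 7 members and for all 32851 RefSeq promoters. The promoters of Egr1, Ier2 and Fosl1 were not analysed here, so the counts below say nothing of them, and Egr1 is the member with the largest change. The AP-1 words TGACTCA or TGAGTCA were in 5.2% of all promoters and in 0 of the 7. The cAMP response word TGACGTCA was in 1.79% and the CArG box, the SRF site, in 1.63%, and neither was in any of the 7. The Egr words GCGTGGGCG or GCGGGGGCG were in 3.47% of all promoters and in 2 of the 7, beginning 79 bases before the start in Fosl2 and 50 in Fosb. A pair of further words was searched after these results were seen. TGACATCA, known from the Jun promoter, was in 3.62% of all promoters and began 45 bases before the start in Jun. TGACG, which is part of TGACGTCA, was in 20.8% of all promoters and in those of Junb, Fos and Fosb, in Junb 106 bases before the start. No match means only that these letters are not in this window.

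Egr1, a zinc finger transcription factor on chromosome 18, showed the largest change among the members. It had 507 and 469 counts in the DMSO libraries and 141 and 161 in the risperidone libraries, or 10.54 and 10.05 against 2.95 and 3.42 FPKM. Every risperidone value was well below every DMSO value. Its log2 fold change was -1.60 (SE 0.0981, adjusted p = 2.58e-07 with edgeR), a 3.03-fold lower level, with a 95% interval of -1.81 to -1.38. Of all tested genes, 87 had a lower log2 fold change. Without risperidone replicate 2 the value was -1.70.

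Ier2, a nuclear regulator of transcription that is induced by growth factors, lies at chr8:84661331-84662852 and has a single exon. It had 311 and 321 counts with DMSO and 104 and 117 with risperidone, which is 13.70 and 14.55 against 4.60 and 5.25 FPKM. The groups did not overlap, and the log2 fold change was -1.42 (SE 0.126, adjusted p = 3.29e-06 with edgeR) or -1.51 without risperidone replicate 2. Ier3, a stress-induced gene that acts in cell survival, lies at chr17:35821713-35822911. Its FPKM was 47.72 and 49.02 with DMSO and 17.34 and 19.03 with risperidone. It was the most abundant member in both DMSO libraries, and in risperidone replicate 1 it lay below Fosl2, Junb and Jund. The log2 fold change was -1.31 (SE 0.0667, adjusted p = 8.2e-08 with edgeR), or -1.38 without risperidone replicate 2. For Egr1, Ier2 and Ier3 risperidone replicate 2 was the less low of the treated pair, by 1.16, 1.14 and 1.10 times replicate 1 in FPKM.

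The Jun family split. Jun, the founding member and a strong activator, lies at chr4:95049036-95052222. It had 636 and 634 counts with DMSO and 442 and 413 with risperidone, or 12.73 and 13.07 against 8.90 and 8.45 FPKM. Its replicates lay close together and its groups apart, with a log2 fold change of -0.48 (SE 0.0615, adjusted p = 5.2e-05 with edgeR) that was -0.43 without risperidone replicate 2. Junb, which pairs with the same partners and can act against Jun, lies at chr8:84976909-84978748. It had 593 and 542 counts with DMSO and 976 and 716 with risperidone, or 21.24 and 19.99 against 35.14 and 26.15 FPKM. Both risperidone values were above both DMSO values, but they stood apart from each other, with a ratio of 0.744 of replicate 2 to replicate 1. In 4.02% of tested genes with no 0 value the treated replicates were wider apart. The log2 fold change was 0.67 (SE 0.115, adjusted p = 0.00042 with edgeR). It was 0.87 without risperidone replicate 2, which holds the kidney markers, and 0.43 without replicate 1, and was called both times. On TPM it was 0.41.

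Jund, the Jun gene usually expressed in resting cells, lies at chr8:70697739-70700616. Its FPKM was 27.77 and 30.25 with DMSO and 27.94 and 23.50 with risperidone, so the groups overlapped. The log2 fold change was -0.08 with a 95% interval of -0.26 to 0.11 (adjusted p = 0.443 with edgeR). Its sign rested on single libraries: it was 0.049 without risperidone replicate 2 and -0.21, and called (adjusted p = 0.0128), without replicate 1. On TPM, where the median gene was at -0.22, it was -0.32 and was called. Ier2 and Junb are 314 kb apart on the same chromosome and moved in opposite directions.

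Fosl2, known as Fra-2, was the main Fos family transcript, at chr5:32136472-32157840. It had 1806 and 1824 counts with DMSO and 1644 and 1381 with risperidone, or 19.25 and 20.04 against 17.63 and 15.06 FPKM. The treated values were lower without overlap, but the log2 fold change of -0.17 (SE 0.0704, 95% interval -0.32 to -0.01) had an adjusted p of 0.054 with edgeR. It was -0.05 without risperidone replicate 2 and -0.29, and called, without replicate 1. The call was also made with the replicate block, in a fit with the replicate number as a term (adjusted p = 0.0153). Fosl2 has the longest transcript of the members, 6537 bases, and with an offset for gene length its value was -0.07.

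Fos, the founding partner of Jun in AP-1, was low, at chr12:85473890-85477274. It had 40 and 38 counts with DMSO and 22 and 24 with risperidone, or 1.25 and 1.22 against 0.69 and 0.76 FPKM. The groups did not overlap. Its log2 fold change of -0.66 had a 95% interval of -1.36 to 0.03 (adjusted p = 0.0904 with edgeR) and was -0.72 without risperidone replicate 2. Fosl1, known as Fra-1, at chr19:5447698-5455938, had 19.58 and 10.84 estimated counts with DMSO and 6.51 and 6.68 with risperidone, and a log2 fold change of -1.03 (95% interval -2.13 to 0.06, adjusted p = 0.0933 with edgeR). It was -0.57 without DMSO replicate 1 and again -1.03 without risperidone replicate 2. Its counts are fractional, and 2767 bases of it overlap Ccdc85b on the opposite strand. Fosb, at chr7:19302696-19310118, had 18 and 8 counts with DMSO and 18 and 20 with risperidone. Its groups overlapped, the DMSO replicates differed by 2-fold in FPKM, and its log2 fold change of 0.64 had an interval of -0.39 to 1.68. That value rested on single libraries, at 1.31 without DMSO replicate 1, 0.19 without DMSO replicate 2 and 0.57 without risperidone replicate 2, none of them called. These 3 genes were not called by the count test, which called Egr2 and Egr3 at similar counts, while a test of log2(TPM + 1) called Fos and Fosl1 lower (adjusted p = 0.0074 and 0.0326 with limma).

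**Figure D2:**
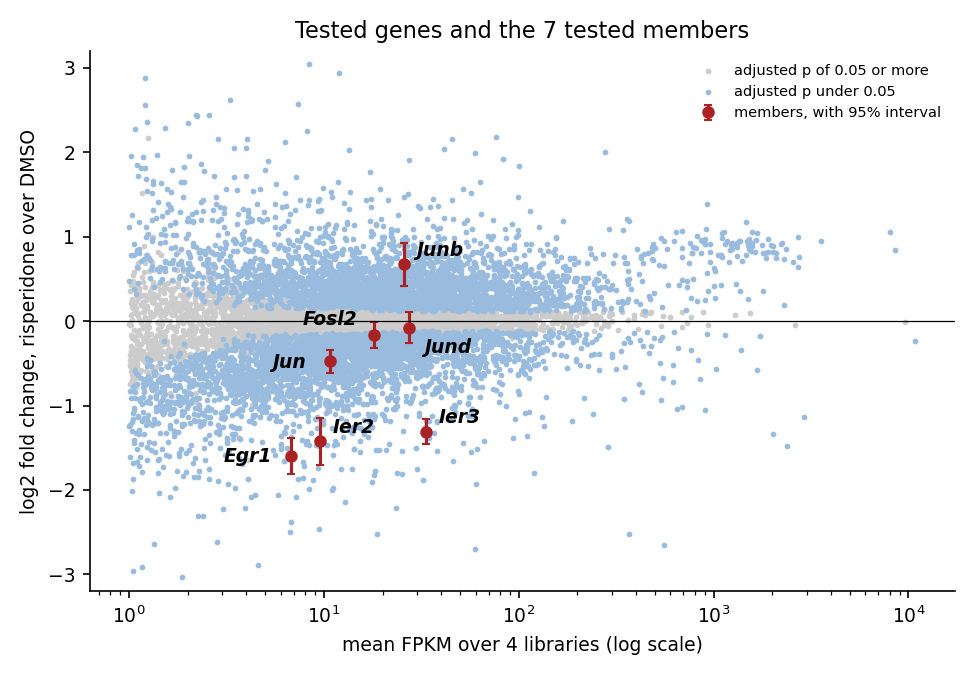
Log2 fold change against mean FPKM over the 4 libraries (log scale) for the 10243 tested genes, pale blue where the adjusted p was under 0.05 and grey elsewhere, with the 7 tested members in red and 95% intervals. Egr1, Ier2 and Ier3 lie at the lower edge of the cloud, Junb on its upper side and Jund and Fosl2 near 0, while 31 genes lie outside the plotted range of 3.2 either way.

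Since AP-1 is a pair, the members were also set side by side on the FPKM scale, which takes transcript length into account. In the DMSO libraries the order was Ier3, Jund, Junb, Fosl2, Ier2, Jun, Egr1, Fos, Fosl1 and Fosb, where Junb and Fosl2 overlapped. In the risperidone libraries it was Junb, Jund, Ier3, Fosl2, Jun, Ier2, Egr1, Fos, Fosb and Fosl1, where Junb and Jund overlapped across libraries, as did Ier3 and Fosl2. Within each library the order of Junb and Jund was clear: Jund minus Junb was 6.53 and 10.26 FPKM in the DMSO libraries, and -7.2 and -2.65 FPKM in the risperidone libraries.

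**Figure D3:**
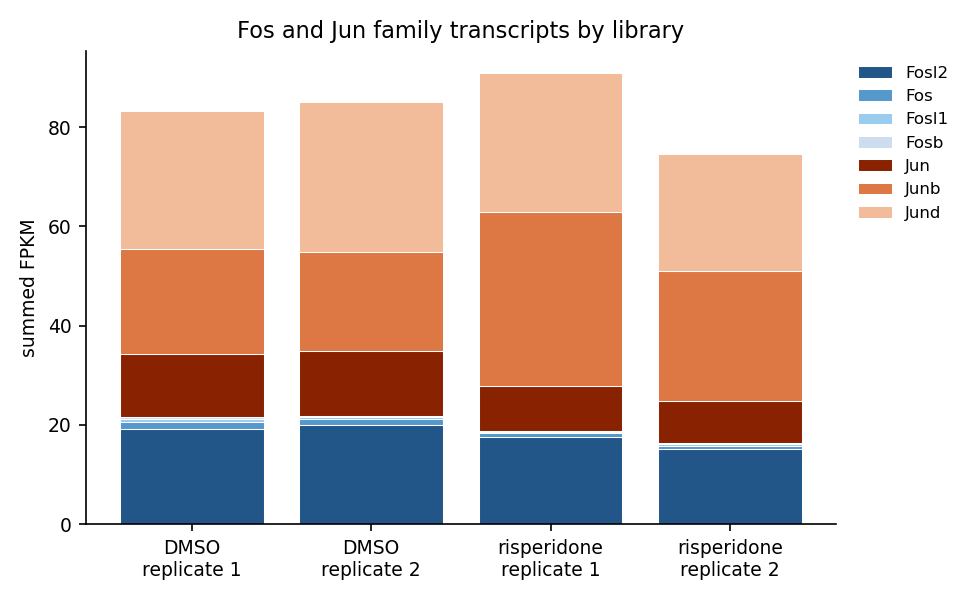
Summed FPKM of the 4 Fos family genes (blue) and the 3 Jun family genes (brown to orange) in each library, 1 bar per library and no error bars. The bars reach 83.3 and 85.15 with DMSO and 90.85 and 74.53 with risperidone, and the Junb segment widens while the Jun segment narrows.

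The total of the 7 Fos and Jun family genes was 83.3 and 85.15 FPKM with DMSO and 90.85 and 74.53 with risperidone. On this scale the totals overlapped while the makeup of the sum differed. The overlap did not hold on TPM, where the median gene was at -0.22 and both risperidone totals lay below both DMSO totals. Junb held 25.5% and 23.5% of the FPKM total with DMSO and 38.7% and 35.1% with risperidone. The share of Jun was 15.3% in both DMSO libraries and 9.8% and 11.3% in the risperidone libraries. Fos family genes together held 25.9% and 25.6% with DMSO and 20.8% and 22% with risperidone, and Fosl2 was 89.3% to 93.4% of the Fos family sum. The ratio of Junb to Jun was 1.67 and 1.53 with DMSO and 3.95 and 3.09 with risperidone, a 2.2-fold difference of means. None of these shares and ratios overlapped between treatments apart from the share of Fosl2 within its family, and the exact permutation test, two-sided, gave p = 0.333 for the ratio, the smallest that 2 libraries against 2 allow. These are mRNA sums, and fewer cells of a type and less RNA per cell cannot be told apart in bulk samples.

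Transcript features that the choice of members did not use were read from GENCODE on the same build, with 1 transcript per gene. Jun, Junb, Jund and Ier2 have a single exon, as do 2% of the 10125 coding genes tested. All 10 have a GC content above the median of those genes, 51.9% to 67.1% against 50%. With an offset for gene length and GC content together the log2 fold changes were -1.63 for Egr1, -1.51 for Ier2, -1.45 for Ier3, -0.49 for Jun and 0.62 for Junb, all called. The word ATTTA, the core of AU-rich decay elements, occurs in the 3′ UTR of 9 members and of 70.2% of coding genes with a 3′ UTR. It occurs 8 times in Fosl2, 5 in Ier3, 4 in Fos and in Jun, 2 in Egr1 and in Junb, and not in Ier2. The longer word TTATTTATT is in 2 members, Fos and Fosl2, and in 8.11% of coding genes with a 3′ UTR. Jun, Jund and Junb each overlap a gene on the opposite strand, which are Junos, Gm11175 and Prdx2. The first and second of these were not analysed here. Whether counting used strand is not given in the sources used here, and reads of such pairs cannot be told apart without it. Prdx2 overlaps a longer form of Junb by 351 bases and had 3182 and 3165 counts with DMSO and 3346 and 3070 with risperidone.

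The counts of each list below stand beside 32.1% higher and 32.2% lower over all tested genes. Of the 2 tested genes among the other Egr and Nab genes, 1 was lower and 1 higher. Nab2, a corepressor that Egr proteins induce, fell from 78.42 and 79.36 FPKM to 34.39 and 35.91 (log2 fold change -1.06, SE 0.0473). Its paralog Nab1 was higher by 0.17 on the log2 scale with edgeR and at -0.06 on TPM. Egr2 and Egr3 were under 1 FPKM and were chosen after their values were seen. In the fit over genes with at least 10 counts their log2 fold changes were -1.40 and -1.86 (adjusted p = 0.0232 and 0.00279 with edgeR). Without risperidone replicate 2 the values of Egr2 and Egr3 were -1.29, not called (adjusted p = 0.0559), and -1.69, called. Egr2 also lost its call without DMSO replicate 2 (-1.17, adjusted p = 0.112) and with DESeq2 (adjusted p = 0.15).

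Other AP-1 partners did not share 1 direction. Of 8 tested genes 4 were higher and 2 lower, with a median log2 fold change of 0.19. The balance turned on TPM, with 1 higher, 4 lower and a median of -0.05, and stayed at 4 and 2 without risperidone replicate 2. The stress-induced factor Atf3 rose from 1.36 and 0.85 to 2.53 and 2.16 FPKM, by 1.18 on the log2 scale (SE 0.26). The small Maf genes did not move together: Maff and Mafk rose by 0.60 and 0.43, while Mafg, named after its value was seen, was lower at -0.23. Jdp2, which pairs with Jun as a repressor, rose by 0.32. On TPM Maff, Mafk and Jdp2 were at 0.23, 0.17 and 0.084 and were not called (adjusted p = 0.125, 0.0797 and 0.233 with limma). Maf was lower at -0.58. Among 14 genes for SRF, ternary complex and CREB factors, 4 were higher and 5 lower, with a median of -0.03 and the same counts without risperidone replicate 2. This split depended on the scaling, with 1 higher and 5 lower by library size only, and 0 higher, 8 lower and a median of -0.25 on TPM. Elk4, an SRF partner, was at -0.95, and the coactivator genes Crebbp, Ep300 and Crtc1 at -0.67, -0.56 and -0.47, with Creb1 at -0.49. Srf itself was higher at 0.21 with edgeR and at -0.028 on TPM. It lies outside the naming rule and was picked after its value was seen.

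Of 18 tested upstream kinase genes 2 were higher and 9 lower, with a median of -0.17. Without risperidone replicate 2 these were 1 and 10 with a median of -0.25, and on TPM 1 and 14 with a median of -0.39. Mapk3, which encodes ERK1, rose from 107.54 and 102.92 to 151.3 and 141.37 FPKM (log2 fold change 0.57, SE 0.0521), and Rps6ka1, the ribosomal S6 kinase RSK1 downstream of it, by 0.36, which was not called without risperidone replicate 2 (0.32, adjusted p = 0.053 with edgeR) or on TPM (0.11, adjusted p = 0.415 with limma). Mapk14, the p38α gene, fell from 50.59 and 53.01 to 32.67 and 35.14 FPKM (-0.51, SE 0.051), and its upstream kinase gene Map2k3 was at -0.44. The ERK kinase gene Map2k2 was at -0.39. These are transcripts, and kinase activity was not measured by them. Of 10 genes for degradation and modification of AP-1 proteins, 1 was higher and 3 lower, also without risperidone replicate 2. With the offset for gene length and GC content 2 were higher and 2 lower, by library size only 0 and 4, and on TPM 0 and 8. The ubiquitin ligase genes Itch and Fbxw7, which act on Jun proteins, were at -0.72 (SE 0.0559) and -0.69 (SE 0.0649). Gsk3b, which marks Jun for Fbxw7, was at -0.19, but at -0.04 with the offset for gene length and GC content. Cop1, another ubiquitin ligase gene for Jun, was higher at 0.14 with edgeR and at -0.11 on TPM.

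**Figure D4:**
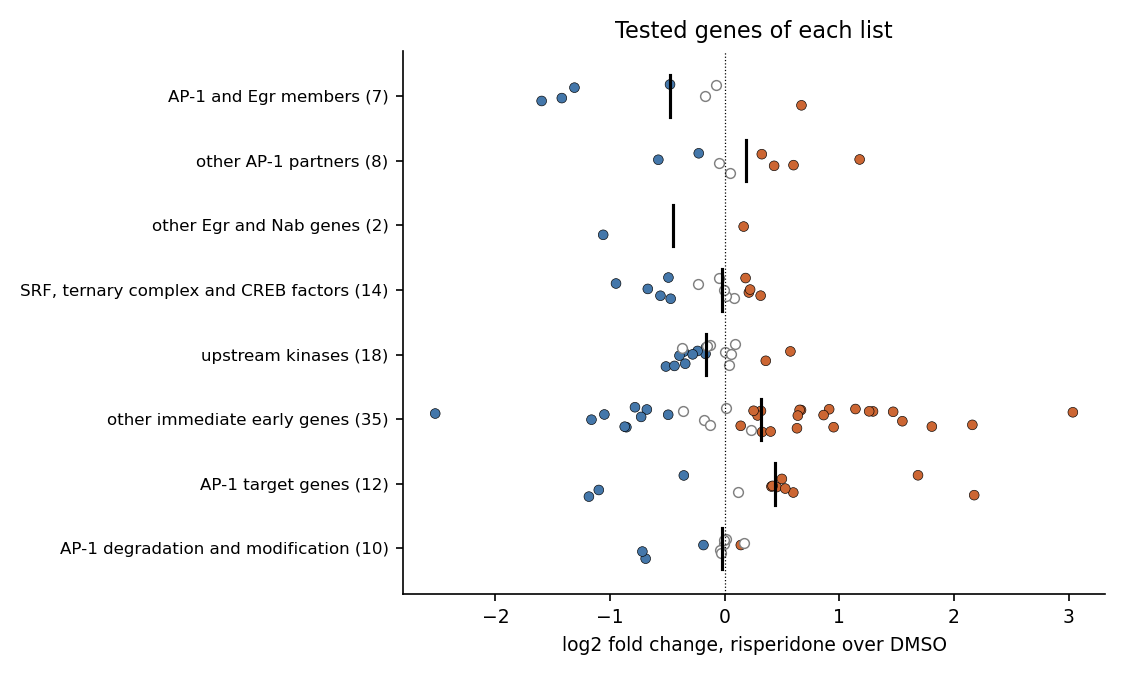
Log2 fold changes of the tested genes of each list, 1 point per gene, orange for higher and blue for lower at an adjusted p under 0.05 and open for the rest, with a black bar at the median and the number of tested genes in brackets. The members' median lies at -0.48 and that of other immediate early genes at 0.32, and both lists hold genes on both sides of 0.

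Other immediate early genes rose more often than they fell. Of 35 tested genes 21 were higher and 9 lower, with a median of 0.32, and on TPM 15 were higher and 13 lower with a median of 0.08. The kinase gene Pim1 rose from 2.03 and 1.82 to 17.24 and 12.38 FPKM (log2 fold change 3.04, SE 0.186). The matricellular genes Cyr61 and Ctgf rose by 2.16 (SE 0.0673) and 1.81 (SE 0.244), and the polo-like kinase gene Plk3 by 1.55 (SE 0.159). Dusp1, whose product removes phosphate from p38, JNK and ERK, fell from 32.18 and 32.58 to 4.55 and 5.96 FPKM (-2.53, SE 0.0902). Its direction was that of Egr1, Ier2 and Ier3. Without risperidone replicate 2 the list again had 21 higher and 9 lower genes.

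Genes that AP-1 is known to regulate also went both ways, with 8 of 12 tested genes higher, 3 lower and a median of 0.44. On TPM 6 were higher and 3 lower with a median of 0.19, and without risperidone replicate 2 the counts were again 8 and 3. The urokinase receptor gene Plaur rose from 0.53 and 0.69 to 1.79 and 1.86 FPKM, by 1.69 on the log2 scale (SE 0.30), and Ccnd1, the cyclin D1 gene, by 0.60. The chemokine gene Ccl2 and the heme oxygenase gene Hmox1 fell by 1.18 and 1.10 on the log2 scale. Over all tested genes of the series 32.1% were higher and 32.2% lower. Of all 99 tested genes of these 7 lists 41 were higher and 32 lower, and without risperidone replicate 2 these were 40 and 33. Of the 31 genes named from the lists by rule, 30 kept their direction and call without that library, the exception being Rps6ka1.

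Marker genes of other cells were set beside these values. The kidney genes Kap, Slc34a1 and Miox had 1048, 681 and 280 counts in risperidone replicate 2 and at most 16 in any other library. Of 7 macrophage markers Cd14 and Cd68 were above 1 FPKM and went opposite ways, at -0.35 and 1.19 on the log2 scale, both called, while Ptprc had at most 3 counts and Itgam at most 1. All 5 listed retina markers were under 1 FPKM in every library, although the labels speak of retinas. Crx had 1 and 2 counts with DMSO and 41 and 35 with risperidone, or at most 0.92 FPKM. Of 4 tested adipocyte markers 2 were lower, Fabp4 at -1.09 and Lpl at -0.24, and Pparg and Cd36 were not called. The list summed to 378.32 and 432.15 FPKM with DMSO and 265.62 and 277.16 with risperidone, and this was mostly the sum of Fabp4 and Lpl. Of 7 tested preadipocyte and fibroblast markers 4 were higher and 2 lower, among them Dlk1 at 1.52, Col1a1 at 0.99, Col1a2 at -0.16 and Pdgfrb at -0.50, and Pdgfra was not called. Their median log2 fold change was 0.99, and 0.53 without risperidone replicate 2. Their sum of 1512.12 and 1464.82 against 1727.6 and 1725.55 FPKM was mostly that of the 2 collagen genes, which moved in opposite directions. The macrophage list, mostly through Cd14 and Cd68, summed to 15.94 and 18.53 against 17.08 and 16.94 FPKM. The part of these marker genes in the members' values was not tested.

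**Figure D5:**
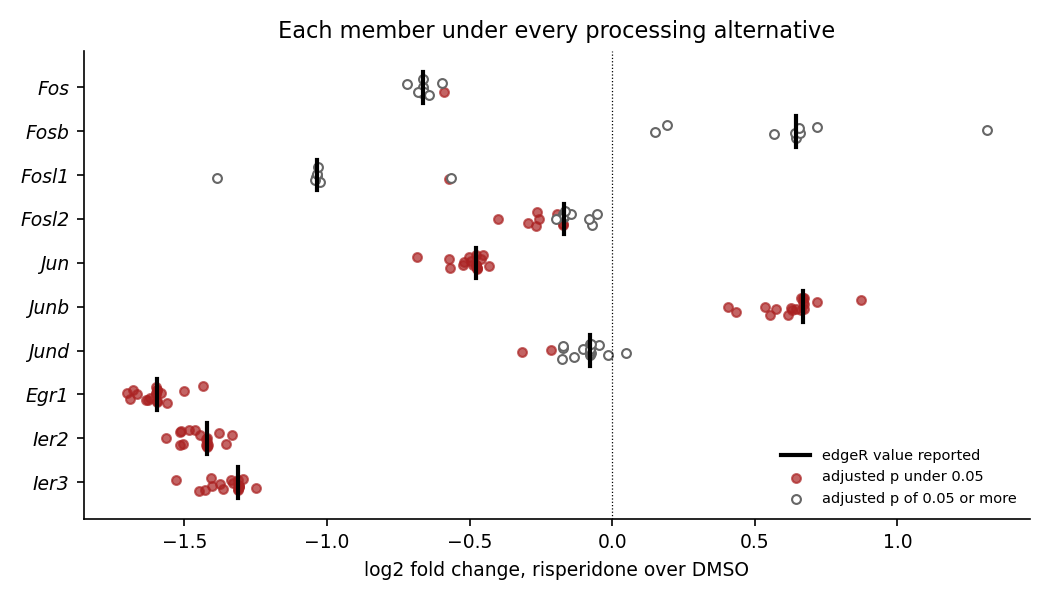
Log2 fold change of each member under every alternative computed for it, filled where the adjusted p was under 0.05 and open elsewhere, with a black bar at the value reported. Egr1, Ier2, Ier3, Jun and Junb are filled throughout, and Jund is the member whose points lie on both sides of 0.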

How the data were processed

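Differentiated 3T3-L1 cells with DMSO or risperidone were measured as 2 mRNA libraries each, grouped by the sample titles. Per the labels, the submitters' processing notes name Bowtie2, RSEM and DESeq2 with build GRCm38.p6. The authors deposited each estimated count (expected count) per gene as made from the mapped reads, without normalization, FPKM values scaled by length and library, and TPM values scaled to the same sum per library. With zeros included, 91.2% to 91.7% of the count values in each library lie within 0.001 of a whole number.

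After rounding the counts, genes averaging at least 1 FPKM were tested with edgeR 4.0.16 (R 4.3.3) after TMM scaling (factors 0.963 to 1.03), with the adjusted p threshold at 0.05. The SE is the absolute log2 fold change over the square root of F. Means of at least 10 counts were used for genes under 1 FPKM. Alternatives used limma 3.58.1, with pseudocounts of 1 and 0.1, and DESeq2 1.42.0. The step was tested on simulated data. Members and gene lists were chosen with earlier results of these data known. Named were all members, up to 5 genes per list with the largest called changes without overlap in FPKM, and the 3 most abundant of each marker list. Some genes that this rule names are not reported here. Other exceptions are said in the text, and the fibroblast, adipocyte and macrophage genes outside that rule were named after their values were seen. RefSeq gave gene positions and promoters, and GENCODE M21 the transcripts. Intervals cover 95%. Protein sequences were not analysed here.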

Additional observations from a re-analysis of the deposited data

How the results depend on the processing

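Egr1, Ier2, Ier3, Jun and Junb kept their direction and call under all 17 alternatives each, with log2 fold changes of -1.70 to -1.43, -1.56 to -1.33, -1.53 to -1.25, -0.68 to -0.43 and 0.41 to 0.87. At a log2 fold change of 1 or more either way there were 0 higher and 3 lower members, and 267 higher and 401 lower genes of all tested. On TPM the counts were 1536 higher and 5292 lower over all tested genes, and 23 and 51 over the 7 lists. Jund lay between -0.21 and 0.049 with each library left out, and turned to 0.049 without risperidone replicate 2. Fosl2 was called under 8 of 17 alternatives, at -0.40 on TPM and -0.26 with library size only. Leaving out each library gave 1 higher member throughout and 4 to 6 lower ones, 2666 to 3310 higher and 2725 to 3350 lower genes, and 35 to 40 higher and 29 to 33 lower list genes. Deviations of same-numbered libraries correlated at -0.105, so the numbers are not taken as pairs. With the replicate block 1 member was higher and 5 lower, the addition being Fosl2, and 3292 genes were higher and 3321 lower, with 41 and 32 of the lists. The crossed block, chosen after seeing the data as were the gene length and GC offset and the mean of at least 10 counts, gave 3474 and 3519. The cause of these shifts was not tested. Fos, Fosb and Fosl1 rest on at most 40 counts in a library, so their intervals are wide.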
